A study of Mus musculus with 23 samples.

Results

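Transcripts of Ccr2, Ccr6, Cxcr3, Cxcr4, Cxcr5 and Cxcr6, receptors for chemokines of inflamed and lymphoid tissue, were followed over 9 groups of sorted mouse CD4+ T cells. The genes were taken by name, with every probe set that the array annotation gives to 1 of them alone. This gave 10 of 45101 probe sets, for 6 of 18193 genes. Ccr2 had 4 probe sets (1421186_at, 1421187_at, 1421188_at and 1460067_at) and Cxcr6 had 2 (1425832_a_at and 1422812_at). Ccr6 (1450357_a_at), Cxcr3 (1449925_at), Cxcr4 (1448710_at) and Cxcr5 (1422003_at) had 1 each. Ccr2 is described by 1421186_at and Cxcr6 by 1425832_a_at, the brightest of their probe sets on average, unless another is named.

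Chemokines are small proteins laid down in gradients, and leukocytes read them through G protein-coupled receptors that turn on adhesion and movement. Naive T cells recirculate through lymph nodes by means of Ccr7, whereas activated T cells carry receptors for inflamed or barrier tissue. Ccr2 binds Ccl2 and its relatives, which draw monocytes and effector T cells into inflamed sites. Cxcr6 binds Cxcl16, a chemokine that can stay anchored in the cell membrane. Cxcr3 binds Cxcl9 and Cxcl10, which interferon induces, and is a mark of Th1 cells. Ccr6 binds Ccl20, made by mucosal epithelium, and is a mark of Th17 cells and of some regulatory T cells. Cxcr4 binds Cxcl12, which holds cells in bone marrow, and Cxcr5 binds Cxcl13, which leads follicular helper T cells and B cells into follicles.

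Regulatory T (Treg) cells carry the transcription factor Foxp3, which a GFP reporter made visible in most of the mice. LP Treg (GFP+) and LP Tconv (GFP-) cells came from the lamina propria of the small intestine, the tissue under the gut epithelium, of C57BL/6-Foxp3/GFP mice, with 2 arrays each. Lymph node (LN) Treg cells of the same strain were sorted by the integrin CD103 and the receptor Klrg1 into cells with both proteins (CD103+Klrg1+), with CD103 only (CD103+Klrg1-) and with neither (CD103-Klrg1-), again with 2 arrays each. For the homeostatic groups, GFP- CD4+ T cells of BDC2.5/NOD/Foxp3-GFP mice, which carry 1 transgenic T cell receptor, were put into NOD RAG-/- hosts. RAG-/- hosts lack T and B cells. Spleen and lymph nodes gave Foxp3+ and Foxp3- cells on day 14, with 3 arrays each. For the DEC groups, CD4+CD25- cells of HA6.5/Thy1.2/RAG-/-/Balb/c mice, again of 1 transgenic receptor, were put into Balb/c hosts given 50 ng DEC-HA per mouse in 1 injection. After 3 weeks, CD25+ (3 arrays) and CD25- (4 arrays) cells were sorted from spleen and lymph nodes, by CD25 and not by Foxp3. All mice were 6 to 10 weeks old and labelled male, and all cells were gated as CD3+ and CD4+ and against B220, CD8a and CD11b/c. Each array held RNA pooled from 4 to 6 mice (gut and lymph node groups), 2 to 3 mice (homeostatic groups) or 5 to 10 mice (DEC groups), so the spread between arrays is a spread between pools.

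The start sites of 3 of the receptors are shown because Ccr2, Cxcr6 and Cxcr3 were all higher in gut and in CD103+Klrg1+ than in CD103-Klrg1- lymph node Treg cells. RefSeq promoters, from 250 bases before to 50 bases after the start on build GRCm38.p6, were matched for 5 of the 6 genes, with 2 promoters for Ccr6. Capitals mark matches to short motifs searched on both strands: TCACAC for T-box factors, TGTGGT for Runx factors, GTAAACA for forkhead factors, AGGAAG for Ets factors, AGATAA for GATA factors and CCGCCC for Sp and Klf factors. Each letter string was also looked for as its reverse complement.
Ccr2, chr9:124101933-124102232, plus strand: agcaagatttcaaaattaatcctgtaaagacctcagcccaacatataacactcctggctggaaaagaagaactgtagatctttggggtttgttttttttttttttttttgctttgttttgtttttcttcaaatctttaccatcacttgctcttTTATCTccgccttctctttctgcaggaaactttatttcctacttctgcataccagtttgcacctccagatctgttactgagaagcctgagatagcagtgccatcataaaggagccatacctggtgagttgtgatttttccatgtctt
Cxcr6, chr9:123806227-123806526, plus strand: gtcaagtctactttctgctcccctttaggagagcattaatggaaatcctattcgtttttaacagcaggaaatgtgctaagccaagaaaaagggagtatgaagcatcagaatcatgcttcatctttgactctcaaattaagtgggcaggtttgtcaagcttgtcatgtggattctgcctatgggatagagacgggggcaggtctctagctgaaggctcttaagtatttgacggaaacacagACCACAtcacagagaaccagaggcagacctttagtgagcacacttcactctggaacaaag
Cxcr3, chrX:101734098-101734397, minus strand: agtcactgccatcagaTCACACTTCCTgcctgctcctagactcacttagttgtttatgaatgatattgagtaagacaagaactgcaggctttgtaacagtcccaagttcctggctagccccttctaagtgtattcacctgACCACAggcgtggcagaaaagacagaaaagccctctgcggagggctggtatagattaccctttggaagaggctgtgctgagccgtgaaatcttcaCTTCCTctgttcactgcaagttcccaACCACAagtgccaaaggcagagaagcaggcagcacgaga
Ccr2 and Cxcr6 lie on the same chromosome, 9. The Ccr2 gene is annotated from base 124101918, so its window, at a RefSeq start further in, lies inside the annotated gene. The Ccr2 window held 1 GATA match, which 11.2% of all 32851 promoters of this length hold. The Cxcr6 window held 1 Runx match, found in 16.8% of promoters. The Cxcr3 window held a T-box match (14.5% of promoters) that overlaps an Ets match (35.4%), a further Ets match and a pair of Runx matches. The forkhead motif, the kind of site that Foxp3 binds, was in 3.65% of all promoters and had 0 matches in the windows of the receptors. These matches describe letters in a window and not binding.

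Values are the authors' RMA intensities on a log2 scale, where 1 unit is a doubling, and they are compared between arrays for 1 probe set at a time, never between genes. A gene was tested when 1 group mean exceeded 6.27, the median of all values, which left 12516 genes including all 6 receptors. Tests are limma on all 23 arrays, two-sided, and a gene is called when its p, adjusted by Benjamini-Hochberg over all genes tested, is under 0.05. Array medians ran from 63.7 to 81.1 intensity units, and DEC CD25- replicates 3 and 4 stood apart with 68.5 and 63.7 and the lowest correlations with their own group, 0.933 and 0.947. Foxp3 averaged 11.21 in LP Treg and 4.65 in LP Tconv, 10.42 in homeostatic Foxp3+ and 4.76 in homeostatic Foxp3-, but 10.47 in DEC CD25+ and 7.97 in DEC CD25- arrays. Xist, expressed from the inactive X chromosome of females, read 11.85 to 13.25 on the 7 DEC arrays and at most 7.67 on the 16 others, though every mouse was labelled male; Cxcr3 lies on the X chromosome. All 7 CD4 T cell markers on the array were above 6.27 in all 9 groups. In RNA of sorted populations, fewer cells that carry a transcript and less transcript per cell cannot be told apart.

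Across the 9 groups, 4 of the 6 receptors differed by limma's moderated F test: Cxcr6 (adjusted p = 1.06e-08), Ccr2 (4.29e-08), Ccr6 (2.85e-06) and Cxcr3 (6.48e-05). Cxcr4 (adjusted p = 0.0648) and Cxcr5 (adjusted p = 0.106) were not called. Of all genes tested, 46.4% were called by this F test, so being called is common here, while the width of the range is less so. Group means of Cxcr6 spanned 6.04 log2 units, a range wider than in 99.8% of the genes, and those of Ccr2 spanned 4.23, wider than in 98.9%. The ranges were 3.61 for Ccr6, 3.12 for Cxcr3, 2.02 for Cxcr4 and 1.78 for Cxcr5, wider than in 97.9%, 96.3%, 86.6% and 81.5% of genes.

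**Figure D1:**
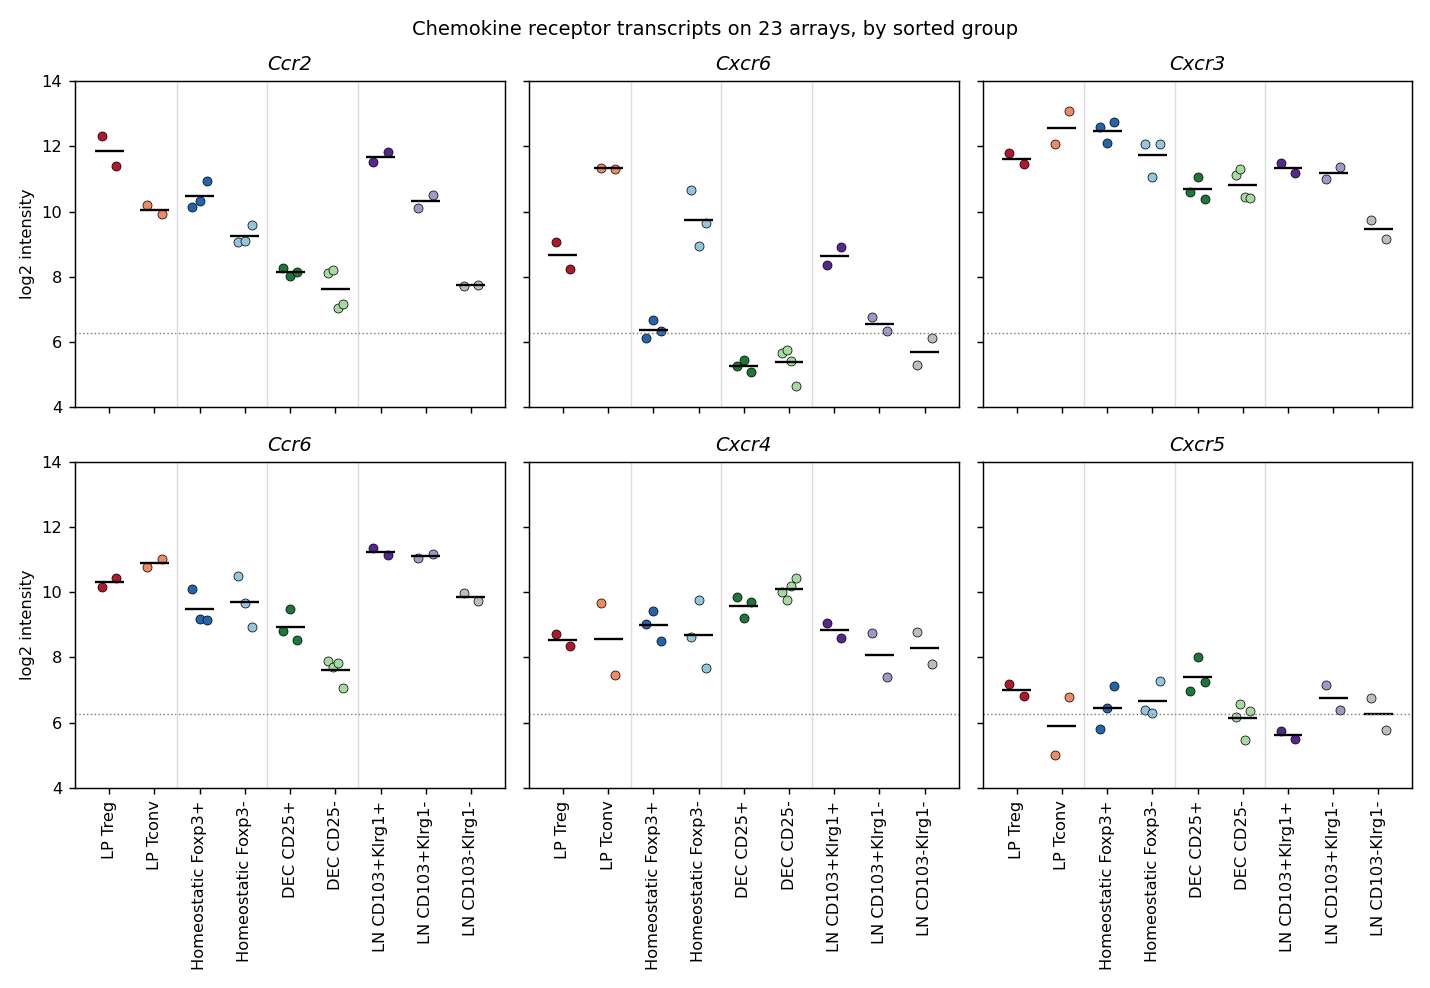
Log2 intensity of each receptor on the 23 arrays (points), with the mean of each group (bar); the dotted line is the filter at 6.27. Cxcr6 runs from 5.27 in DEC CD25+ to 11.32 in LP Tconv, while the Cxcr5 group means all lie between 5.62 and 7.40.

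The order of group means differed from receptor to receptor. Neighbours in this order and those below often came from different strains, hosts or tissues, which cannot be told apart from the sort. The DEC arrays also differed from all others in Xist. Ccr2 was highest in LP Treg (11.86 ± 0.643, SD, n = 2) and CD103+Klrg1+ (11.66 ± 0.21, n = 2) arrays, which did not differ past the threshold. Homeostatic Foxp3+ arrays followed, with CD103+Klrg1+ 1.19 above them (adjusted p = 0.0336 by limma, 10.8% of all genes called between these groups). Homeostatic Foxp3- arrays lay 1.11 above DEC CD25+ (adjusted p = 0.0144 by limma, 24.5% of all genes called). No other neighbours in the Ccr2 order differed past the threshold. Cxcr6 had another order: LP Tconv lay 1.57 above homeostatic Foxp3- (adjusted p = 0.0166 by limma, 15.8% of all genes called), and CD103+Klrg1+ lay 2.08 above CD103+Klrg1- (adjusted p = 0.0461). LP Treg and CD103+Klrg1+ stood between these, and 4 groups, both DEC groups, homeostatic Foxp3+ and CD103-Klrg1-, filled the low end of Cxcr6.

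Cxcr3 was highest in LP Tconv (12.57 ± 0.72, n = 2) and homeostatic Foxp3+ (12.47 ± 0.331, n = 3) and lowest in CD103-Klrg1- arrays (9.45 ± 0.42, n = 2). The only neighbours that differed in its order were DEC CD25+ and CD103-Klrg1-, by 1.23 (limma adjusted p = 0.0322, 14.6% of all genes called). These groups again came from different strains. Ccr6 was highest in CD103+Klrg1+ (11.24 ± 0.15) and CD103+Klrg1- (11.12 ± 0.0794) and lowest in DEC CD25- arrays (7.63 ± 0.38, n = 4), yet 0 of 8 neighbouring pairs differed. The same holds for the 8 neighbouring pairs of Cxcr4 and the 8 of Cxcr5. Over all 36 pairs of groups, 27 were called for Cxcr6, 26 for Ccr2, 17 for Ccr6, 14 for Cxcr3, 3 for Cxcr4 and 1 for Cxcr5, where over all genes and pairs 14.0% were called.

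LP Treg against LP Tconv sets gut Treg cells against Foxp3- T cells of the same tissue, and Ccr2 and Cxcr6 went opposite ways. Ccr2 was 12.32 and 11.41 on the LP Treg arrays, against 10.19 and 9.92 on the LP Tconv arrays. Both LP Treg values lay above both LP Tconv values, and the difference was 1.81 ± 0.378 (SE), or 3.51-fold higher (95% interval 1.01 to 2.61, limma adjusted p = 0.01). Cxcr6 was 9.08 and 8.25 in LP Treg, against 11.33 and 11.31 in LP Tconv. The groups did not overlap, and Cxcr6 was 6.28-fold lower in LP Treg (-2.65 ± 0.459, 95% interval -3.62 to -1.68, adjusted p = 0.00206). These 2 of 6 receptors were called, where 2.7% of all genes were.

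The Th1 receptor Cxcr3 was 11.79 and 11.45 in LP Treg, against 12.06 and 13.08 in LP Tconv. The LP Treg arrays were the lower ones without overlap, as arrays are in 30.9% of all genes, but the difference of -0.95 ± 0.406 was not called (limma adjusted p = 0.435). Ccr6, the Ccl20 receptor, was 10.17 and 10.42 in LP Treg, against 10.78 and 11.03 in LP Tconv. Again the LP Treg arrays were lower without overlap and the difference, -0.60 ± 0.418, was not called (limma adjusted p = 0.913). Cxcr5 and Cxcr4 differed by 1.10 ± 0.56 (limma adjusted p = 0.645) and -0.02 ± 0.651 (adjusted p = 1.0, 95% interval -1.39 to 1.35).

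With 2 arrays a group, single arrays weighed on the Ccr2 call: it was lost without LP Treg replicate 1 (1.36, limma adjusted p = 0.245) and without LP Tconv replicate 2 (1.67, adjusted p = 0.0994). Cxcr6 stayed called without any 1 of the 4 arrays (-3.07 to -2.24), but neither gene was called when only these 4 arrays were fitted (adjusted p = 0.232 for Ccr2 and 0.124 for Cxcr6). Markers of CD8 T and NK cells, some of which carry Cxcr6, summed to 350 to 426 intensity units in LP Treg and 611 to 691 in LP Tconv. In LP Treg 1 of those 7 markers was above 6.27, and in LP Tconv 2 were. Klrd1, an NK receptor chain, averaged 5.33 in LP Treg and 8.13 in LP Tconv (adjusted p = 0.0438 by limma), and Cd8a, which defines CD8 T cells, 6.86 and 6.92. Klrd1 was the 1 of 6 tested markers of this list called, and most of the gap between the sums was its own. The part of these markers in the Cxcr6 difference was not tested.

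**Figure D2:**
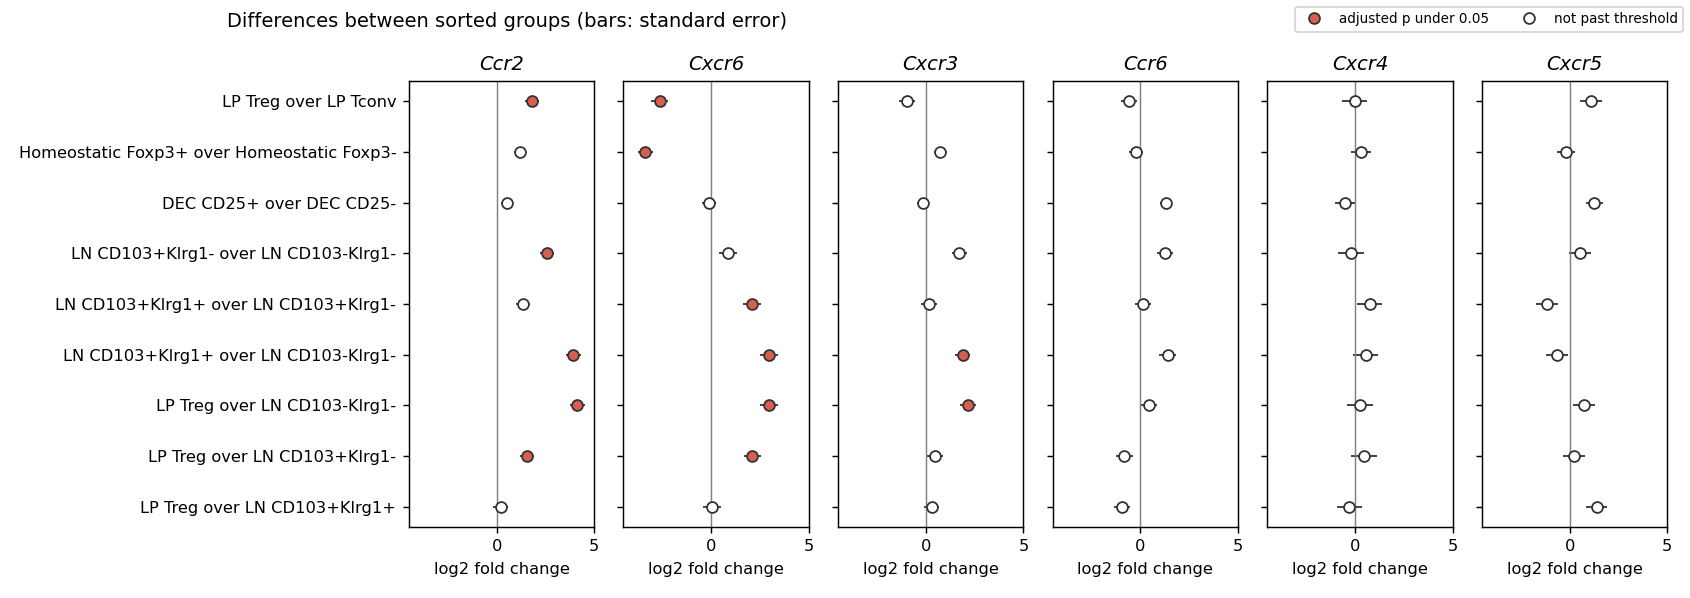
Log2 fold change of each receptor (x axis) with its standard error in the 9 comparisons (rows), the first group named over the second; filled points are called. Ccr2 points lie at or above 0 in all rows and Cxcr6 points on both sides, from -3.37 to 2.97.

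In the homeostatic transfer, which compares cells that gained Foxp3 with those that did not, Cxcr6 was again the lower one in Foxp3+ cells. It was 6.11, 6.68 and 6.33 on the homeostatic Foxp3+ arrays, against 10.66, 8.94 and 9.64 on the Foxp3- arrays. The lowest Foxp3- array stood far above the highest Foxp3+ array, and Foxp3+ cells had 10.4-fold less (-3.37 ± 0.375, 95% interval -4.16 to -2.59, adjusted p = 3.54e-05 by limma). Cxcr6 was the 1 receptor of 6 called, where 1.76% of all genes were, and it stayed called in all 14 other settings and without any 1 of the 6 arrays.

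Ccr2 was 10.14, 10.32 and 10.95 in homeostatic Foxp3+, against 9.08, 9.10 and 9.60 in homeostatic Foxp3- arrays. The Foxp3+ arrays were higher without overlap, as arrays of either group are in 22.3% of all genes, and the difference of 1.21 ± 0.309 just missed the threshold (95% interval 0.56 to 1.86, limma adjusted p = 0.0569). It passed in 8 of 14 other settings, among them quantile normalization (adjusted p = 0.021) and the replicate number as a block in all systems at once (adjusted p = 0.011), but in 0 of 6 that left out 1 array. Cxcr3 was 12.59, 12.10 and 12.73 in homeostatic Foxp3+, against 12.08, 11.06 and 12.07 in homeostatic Foxp3- arrays. The Foxp3+ arrays were just above the others, and the difference was 0.74 ± 0.331 (adjusted p = 0.594 by limma). Ccr6, Cxcr4 and Cxcr5 differed by -0.22, 0.30 and -0.19, and none was called.

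Myeloid and dendritic markers, from cells that are rich in Ccr2, were high in both homeostatic groups. They summed to 2748 to 10128 intensity units in homeostatic Foxp3+ and 4942 to 15997 in homeostatic Foxp3-. The highest sums elsewhere were 1363 in the gut, 1780 in the lymph node and 4350 in the DEC arrays. In each homeostatic group 12 of 13 markers were above 6.27. The sums of the homeostatic groups overlapped, and 0 of 12 tested markers were called between them by limma. Lyz2, lysozyme of macrophages and granulocytes, averaged 10.58 in homeostatic Foxp3+ and 11.24 in homeostatic Foxp3-. Their part in the Ccr2 difference was not tested. CD8 T and NK markers summed to 1653 to 2842 in homeostatic Foxp3+ and 3874 to 4400 in homeostatic Foxp3-, with 5 of 7 above 6.27 in both. Klrd1 averaged 8.34 in homeostatic Foxp3+ and 10.87 in homeostatic Foxp3- (limma adjusted p = 0.0308), while Cd8a averaged 7.24 and 7.13. Again Klrd1 was the 1 of 6 tested markers called, and most of the gap between the sums was its own. The part of these markers in the Cxcr6 difference was not tested.

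In the DEC groups, sorted after a single dose of antigen, 0 of 6 receptors were called by limma, where 0.495% of all genes were; 2 had an unadjusted p under 0.05. Cxcr6 was near the low end of all arrays in both: 5.27, 5.45 and 5.09 in DEC CD25+, against 5.67, 5.77, 5.42 and 4.64 in DEC CD25- arrays. All 7 values lay below the filter at 6.27, the groups overlapped, and the interval of the difference was -0.84 to 0.64. Ccr6 was 8.80, 9.47 and 8.52 in DEC CD25+, against 7.89, 7.71, 7.84 and 7.07 in DEC CD25- arrays. The CD25+ arrays were higher without overlap, which holds for 5.46% of all genes, and the difference was 1.30 ± 0.319 (limma adjusted p = 0.0845).

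Cxcr5, the receptor for follicles, was 6.96, 8.0 and 7.24 in DEC CD25+, against 6.18, 6.57, 5.46 and 6.35 in DEC CD25- arrays. CD25+ was again higher without overlap, with a difference of 1.26 ± 0.428 (limma adjusted p = 0.22). The median gene also lay 0.16 higher in DEC CD25+, and after quantile normalization, where that median was -0.05, the differences were 1.01 for Ccr6 and 1.11 for Cxcr5. Ccr6 was called without DEC CD25- replicate 1 (1.39, adjusted p = 0.0441 by limma) and with a replicate block in all systems at once (1.11, adjusted p = 0.0262), but not with the block in the DEC groups alone (adjusted p = 0.143). With that block 110 of all genes were called, and 62 without it. Both receptors are also B cell receptors, and B cell markers summed to 1495 to 1601 in DEC CD25+ and 945 to 1438 in DEC CD25-, with 6 and 5 of 9 above 6.27. Cd79a averaged 5.63 and 5.50, below the filter, but it read 6.26 even on CD103+Klrg1+ replicate 2, where Ms4a1 (CD20) read 10.88. Of 7 tested B cell markers 0 were called between the DEC groups by limma. Cd79b, Ms4a1 and Bank1 differed by 1.37, 0.82 and 0.76, higher in DEC CD25+, and the others by -0.03 to 0.12. The part of B cell RNA in the Ccr6 and Cxcr5 differences was not tested.

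Ccr2 was 8.27, 8.03 and 8.16 in DEC CD25+, against 8.11, 8.20, 7.03 and 7.17 in DEC CD25- arrays. The groups overlapped and the difference of 0.52 ± 0.289 (limma adjusted p = 0.398) rested on CD25- replicates 3 and 4, the dim arrays: without them it was -0.00. The 3' minus 5' difference of Actb probe sets, a sign of RNA quality, was 4.04 and 3.63 on these arrays and 0.80 to 3.39 on the others. That of Gapdh was 6.59 on replicate 3 and 1.63 to 3.92 elsewhere, and the part of RNA quality was not tested. Myeloid and dendritic markers summed to 2222 to 4350 in DEC CD25+ and 1166 to 2876 in DEC CD25- arrays. Of 12 tested 0 were called by limma, and their part in the Ccr2 values was not tested. Cxcr4 and Cxcr3 differed by -0.51 ± 0.497 and -0.13 ± 0.31, with an interval of -0.79 to 0.52 for Cxcr3, and neither was called by limma.

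Whether the difference between sorted partners itself differed between systems was tested as an interaction, and Cxcr6 was the only receptor called. Its difference between the homeostatic groups minus that between the DEC groups was -3.27 ± 0.513 (95% interval -4.35 to -2.19, limma adjusted p = 0.00625), where 0.336% of all genes were called. This held in all 14 other settings and without any 1 of the 13 arrays. For the gut groups minus the DEC groups it was -2.55 ± 0.577 (limma adjusted p = 0.0379, 1.01% of all genes called). With the replicate block the gut contrast was -2.31 and was not called (limma adjusted p = 0.0545). Without DEC CD25- replicates 3 and 4 it was -2.21 and not called (limma adjusted p = 0.0824), nor was it called in 8 of the 11 fits that left out 1 array (adjusted p from 0.0517 to 0.24). These contrasts share the DEC arrays, on all of which Cxcr6 lay below the filter, so that a lower value in DEC CD25+ would not show and both contrasts set a measured change against a probe set near background.

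Between gut and homeostatic partners 0 of 6 interactions were called by limma, where 0.775% of all genes were. Cxcr6 differed by 0.72 with an interval of -0.52 to 1.97, and Ccr2 by 0.60 with an interval of -0.43 to 1.63. Cxcr3 alone had an unadjusted p under 0.05: it was the lower one in LP Treg and the higher one in homeostatic Foxp3+ cells, relative to their partners, a contrast of -1.69 ± 0.524 (limma adjusted p = 0.248). The remaining contrasts with the DEC groups that were not called included Ccr6, at -1.91 ± 0.526 for gut (adjusted p = 0.123 by limma) and -1.52 ± 0.468 for homeostatic cells (adjusted p = 0.263).

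Ccr2 and Cxcr6, taken because they differed in opposite directions in the gut pair, were set against each other array by array as Ccr2 minus Cxcr6. This is a difference between a pair of probe sets that can be compared between arrays only. It was 3.24 and 3.16 in LP Treg, against -1.14 and -1.39 in LP Tconv. It was 4.03, 3.64 and 4.62 in homeostatic Foxp3+, against -1.59, 0.16 and -0.04 in homeostatic Foxp3- arrays. In DEC CD25+ it was 2.99, 2.58 and 3.07, against 2.44, 2.43, 1.61 and 2.54 in DEC CD25-. Among lymph node Treg subsets it was 3.15 and 2.90 in CD103+Klrg1+, 3.35 and 4.16 in CD103+Klrg1-, and 2.43 and 1.64 in CD103-Klrg1- arrays. The 5 arrays of LP Tconv and homeostatic Foxp3- cells, both sorted as Foxp3-, stood below all 18 others. This restates the differences above and is no further evidence for them, and in the DEC and CD103-Klrg1- arrays the group mean of Cxcr6 lay below the filter.

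**Figure D3:**
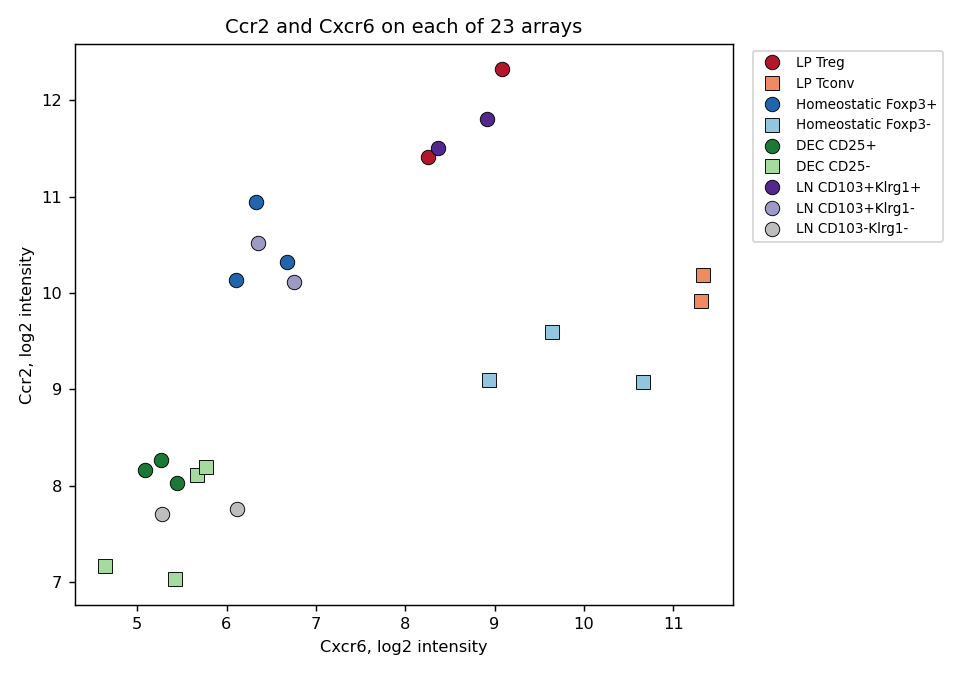
Ccr2 (y axis) against Cxcr6 (x axis), log2 intensity, 1 point per array; squares are LP Tconv, homeostatic Foxp3- and DEC CD25- arrays, circles the other groups. LP Tconv and homeostatic Foxp3- arrays show less Ccr2 for their Cxcr6 than the other groups, and the DEC arrays of both kinds lie together at the lower left.

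Among lymph node Treg cells, sorting by CD103 and Klrg1 went with more Ccr2 at each step. Ccr2 was 11.51 and 11.81 in CD103+Klrg1+, 10.11 and 10.52 in CD103+Klrg1-, and 7.71 and 7.76 in CD103-Klrg1- arrays. The 3 subsets did not overlap, as is true of 29.7% of all genes for CD103+Klrg1- and CD103-Klrg1-, 31.0% for CD103+Klrg1+ and CD103+Klrg1-, and 36.8% for CD103+Klrg1+ and CD103-Klrg1- arrays. CD103+Klrg1- cells had 5.97-fold more than CD103-Klrg1- cells (2.58 ± 0.378, 95% interval 1.78 to 3.37, limma adjusted p = 0.00584). CD103+Klrg1+ cells had 15.2-fold more than CD103-Klrg1- cells (3.92 ± 0.378, adjusted p = 5.73e-06), while their excess over CD103+Klrg1- cells, 1.35 ± 0.378, was not called (limma adjusted p = 0.181). The comparisons within the trio share arrays.

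Ccr2 was the 1 receptor of 6 called between CD103+Klrg1- and CD103-Klrg1- cells, where 0.0959% of all genes were. That call was lost without CD103-Klrg1- replicate 1 (limma adjusted p = 0.0872), CD103-Klrg1- replicate 2 (adjusted p = 0.123) or CD103+Klrg1- replicate 2 (adjusted p = 0.202). The call of Ccr2 between CD103+Klrg1+ and CD103-Klrg1- cells held in all 14 other settings and without any 1 of the 4 arrays.

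Among lymph node subsets Cxcr6 was highest in CD103+Klrg1+ cells. It was 8.37 and 8.91 in CD103+Klrg1+, 6.76 and 6.35 in CD103+Klrg1-, and 5.28 and 6.12 in CD103-Klrg1- arrays. The CD103+Klrg1+ arrays stood clear of both other subsets, whose values lay close to each other. CD103+Klrg1+ cells had 4.24-fold more than CD103+Klrg1- cells (2.08 ± 0.459, 95% interval 1.12 to 3.05, limma adjusted p = 0.0461), the 1 receptor of 6 called, where 0.647% of all genes were. This call was lost without any 1 of the 4 arrays (adjusted p from 0.149 to 0.492). Against CD103-Klrg1- cells, where Cxcr6 lay below the filter, CD103+Klrg1+ cells had at least 7.67-fold more (2.94 ± 0.459, adjusted p = 0.000919 by limma). CD8 T and NK markers summed to 556 and 1937 in CD103+Klrg1+, 649 and 686 in CD103+Klrg1-, and 621 and 823 in CD103-Klrg1- arrays. The array at 1937 also had the higher Cxcr6, 8.91. Of 6 tested markers 0 were called by limma between CD103+Klrg1+ and either other subset. Their part in the Cxcr6 differences was not tested.

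Cxcr3 was 11.49 and 11.17 in CD103+Klrg1+, 10.99 and 11.35 in CD103+Klrg1-, and 9.75 and 9.16 in CD103-Klrg1- arrays. Both CD103+ subsets overlapped and stood above the CD103-Klrg1- arrays. The 3.67-fold excess of CD103+Klrg1+ over CD103-Klrg1- cells was called (1.88 ± 0.406, limma adjusted p = 0.0148), but not without CD103-Klrg1- replicate 2 (adjusted p = 0.265), CD103+Klrg1+ replicate 1 (adjusted p = 0.2) or replicate 2 (adjusted p = 0.0587). With Ccr2 and Cxcr6 this made 3 of 6 receptors called between these subsets, where 2.1% of all genes were. The excess of CD103+Klrg1- over CD103-Klrg1- cells, 1.72 ± 0.406, was not called (limma adjusted p = 0.179). It was called after cyclic loess normalization (adjusted p = 0.0377) and with array weights (adjusted p = 0.00672).

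Ccr6 was 11.34 and 11.13 in CD103+Klrg1+, 11.06 and 11.18 in CD103+Klrg1-, and 9.96 and 9.74 in CD103-Klrg1- arrays. Its pattern was that of Cxcr3, with both CD103+ subsets above CD103-Klrg1- and no gap between them. The differences from CD103-Klrg1- cells were 1.39 ± 0.418 for CD103+Klrg1+ (limma adjusted p = 0.134) and 1.27 ± 0.418 for CD103+Klrg1- (adjusted p = 0.996), neither called. B cell markers summed to 3161 to 5485 in CD103+Klrg1+, 1875 to 2869 in CD103+Klrg1- and 2588 to 2636 in CD103-Klrg1- arrays, with 7 of 9 markers above 6.27 in each. Ms4a1 (CD20) averaged 10.36, 9.10 and 9.63 in these subsets, while Cd79a, at 6.07, 5.70 and 5.98, was below the filter. The part of B cell RNA in the Ccr6 values of CD103+Klrg1+ cells was not tested. Id2, a regulator of innate lymphoid and memory T cells, averaged 10.97, 9.06 and 8.25, and was called between CD103+Klrg1+ and CD103+Klrg1- cells (1.90, limma adjusted p = 0.0252), as Cxcr6 was.

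LP Treg cells were set against each lymph node Treg subset to see which of them gut Treg cells were nearest to in these receptors. Against CD103-Klrg1- cells, 3 of 6 receptors were called, where 4.55% of all genes were called. Ccr2 was 17.5-fold higher (4.13 ± 0.378, limma adjusted p = 3.3e-06), Cxcr6 at least 7.81-fold higher (2.97 ± 0.459, adjusted p = 0.000673) and Cxcr3 4.49-fold higher (2.17 ± 0.406, adjusted p = 0.00314). The Cxcr3 call was lost without LP Treg replicate 1 (adjusted p = 0.0605) or CD103-Klrg1- replicate 2 (adjusted p = 0.071). Against CD103+Klrg1- cells, 2 of 6 were called, where 2.63% of all genes were: Cxcr6 was 4.32-fold higher (2.11 ± 0.459, limma adjusted p = 0.016) and Ccr2 2.93-fold higher (1.55 ± 0.378, adjusted p = 0.0333). Without LP Treg replicate 1, CD103+Klrg1- replicate 1 or CD103+Klrg1- replicate 2, neither of these 2 was called (limma adjusted p from 0.0752 to 0.463).

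Against CD103+Klrg1+ cells 0 of 6 receptors were called by limma, where 2.05% of all genes were. Ccr2 differed by 0.20 with an interval of -0.59 to 1.00, Cxcr6 by 0.03 with an interval of -0.94 to 0.99, and Cxcr3 by 0.29 with an interval of -0.56 to 1.14. The Cxcr6 interval allows close to a doubling or a halving, and the others run further up than down. Ccr6 was the lower one in LP Treg (-0.94 ± 0.418, limma adjusted p = 0.431) and Cxcr5 1.38 ± 0.56 higher (adjusted p = 0.35), the 2 receptors with an unadjusted p under 0.05. The Cxcr5 arrays read 7.19 and 6.81 in LP Treg, against 5.74 and 5.50 in CD103+Klrg1+, without overlap, as is true of 49.5% of all genes here. All 3 of these comparisons share the LP Treg arrays. The nearest subset was not the same for all receptors. CD103+Klrg1+ gave the smallest difference for Ccr2, Cxcr6 and Cxcr3. CD103-Klrg1- gave it for Ccr6 (0.45) and Cxcr4 (0.25), and CD103+Klrg1- for Cxcr5 (0.24), none of them called. With 2 arrays a group, a difference that is not called does not show likeness.

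Some markers of other cells moved with these comparisons. B cell markers summed to 927 to 1039 in LP Treg, against 1875 to 5485 over the 3 lymph node subsets, and of 7 tested 4 fell in LP Treg relative to CD103+Klrg1+ cells, 3 relative to CD103+Klrg1- and 3 relative to CD103-Klrg1- cells. Ms4a1 differed by -4.13, -2.86 and -3.40 in that order. Jchain, the joining chain of antibodies in plasma cells, was 15.8-fold, 13.7-fold and 16.1-fold higher in LP Treg (limma adjusted p = 3.19e-05, 5.6e-05 and 1.58e-05). It was the 1 of 5 tested plasma cell markers called against CD103+Klrg1+ and against CD103+Klrg1- cells. Against CD103-Klrg1- cells Prdm1 was called too (3.25, limma adjusted p = 8.61e-05). Sdc1, Xbp1 and Irf4 were not called in any of the 3 comparisons. Of all genes, 2.05%, 2.63% and 4.55% were called in that order. Prdm1 was also called where Jchain was not. It was higher in CD103+Klrg1+ than in CD103-Klrg1- cells (3.13, limma adjusted p = 0.000136), where Jchain differed by 0.02. In homeostatic Foxp3+ over Foxp3- cells it was higher by 1.59 (limma adjusted p = 0.0156), with Jchain at -0.12. Ccr6 and Cxcr5 are B cell genes too, and the part of B and plasma cell markers in their values was not tested. Of 6 tested CD8 T and NK markers, Klrd1 alone was called, lower in LP Treg than in CD103+Klrg1+ cells (-3.47, limma adjusted p = 0.013). Against CD103+Klrg1- and CD103-Klrg1- cells it differed by -2.3 and -2.29 and was not called. The part of these markers in the Cxcr6 values was not tested.

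Cxcr4 and Cxcr5 were called in none of the 9 comparisons. Cxcr4, the Cxcl12 receptor, was high in transferred DEC cells: 9.84, 9.21 and 9.70 in DEC CD25+, against 9.99, 9.77, 10.18 and 10.44 in DEC CD25- arrays. Elsewhere its replicates were far apart, as on the LP Tconv arrays, at 9.68 and 7.45, or the homeostatic Foxp3- arrays, at 8.63, 9.76 and 7.66. The SD in LP Tconv was 1.58 log2 units, against 0.268 in LP Treg. DEC CD25- lay above CD103+Klrg1- by 2.02 ± 0.564 (limma adjusted p = 0.0135, 25.4% of all genes called) and above CD103-Klrg1- by 1.80 ± 0.564 (adjusted p = 0.0279, 22.6% of all genes called), and the difference of homeostatic Foxp3- over DEC CD25- was -1.41 ± 0.497 (adjusted p = 0.0373, 33.1% of all genes called). These 3 were the only pairs of 36 called for Cxcr4, and they set cells of different strains and hosts against each other.

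Cxcr5 stayed near the filter in all groups, so that its changes are hard to see on this array. Its group means lay above 6.27 in DEC CD25+ (7.40 ± 0.542, n = 3), LP Treg (7.0 ± 0.274, n = 2), CD103+Klrg1- (6.76 ± 0.531, n = 2), homeostatic Foxp3- (6.65 ± 0.543, n = 3) and homeostatic Foxp3+ (6.46 ± 0.667, n = 3), and below it elsewhere. The LP Tconv arrays read 5.01 and 6.79. Its single called pair of 36 was DEC CD25+ over CD103+Klrg1+ (1.78 ± 0.511, limma adjusted p = 0.021, 18.2% of all genes called).

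The probe sets of 1 gene did not all show the same size of change. Tested on its own among 21612 probe sets, the second Cxcr6 probe set, 1422812_at, gave larger differences than the first. It was 8.55 and 8.25 in LP Treg against 11.51 and 11.56 in LP Tconv, and 5.55, 6.51 and 5.95 in homeostatic Foxp3+ against 10.66, 9.27 and 9.96 in homeostatic Foxp3- arrays. Neither pair of groups overlapped, and the differences were -3.14 ± 0.422 (limma adjusted p = 0.000209) and -3.96 ± 0.344 (adjusted p = 2.39e-06). It was also called for CD103+Klrg1+ over CD103+Klrg1- (2.76, adjusted p = 0.00247 by limma), where 1425832_a_at alone was not (adjusted p = 0.0588).

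Of the 4 Ccr2 probe sets, 1421186_at, 1421187_at and 1421188_at were called for LP Treg over LP Tconv, with differences of 1.81, 1.97 and 1.50 (limma adjusted p = 0.0119, 0.0481 and 0.0108). 1460067_at was not, at 0.56 (adjusted p = 0.47), and it gave the smallest difference in each comparison in which Ccr2 was called. For CD103+Klrg1- over CD103-Klrg1- the 4 gave 2.58, 0.92, 1.37 and 0.49 in the same order, and only the first was called (limma adjusted p = 0.0068). For CD103+Klrg1+ over CD103-Klrg1- they gave 3.92, 2.59, 2.87 and 0.98, all called. Between CD103+Klrg1- and CD103-Klrg1- cells all 4 were thus higher in CD103+Klrg1- cells, but only 1 was called on its own. The gene was called there in 13 of 14 other settings, but not by its weakest probe set. Between CD103+Klrg1+ and CD103-Klrg1- cells all 4 probe sets were called on their own. The order of groups also differed. On 1421187_at LP Treg (9.1) and CD103+Klrg1+ (7.65) were highest, with homeostatic Foxp3+ at 6.92. On 1421188_at homeostatic Foxp3+ was at 9.86, beside 9.86 in CD103+Klrg1+ and 9.58 in LP Treg. On 1460067_at these were 8.31, 8.2 and 8.13. The excess of CD103+Klrg1+ over homeostatic Foxp3+ was thus seen on 1421186_at and 1421187_at only.

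**Figure D4:**
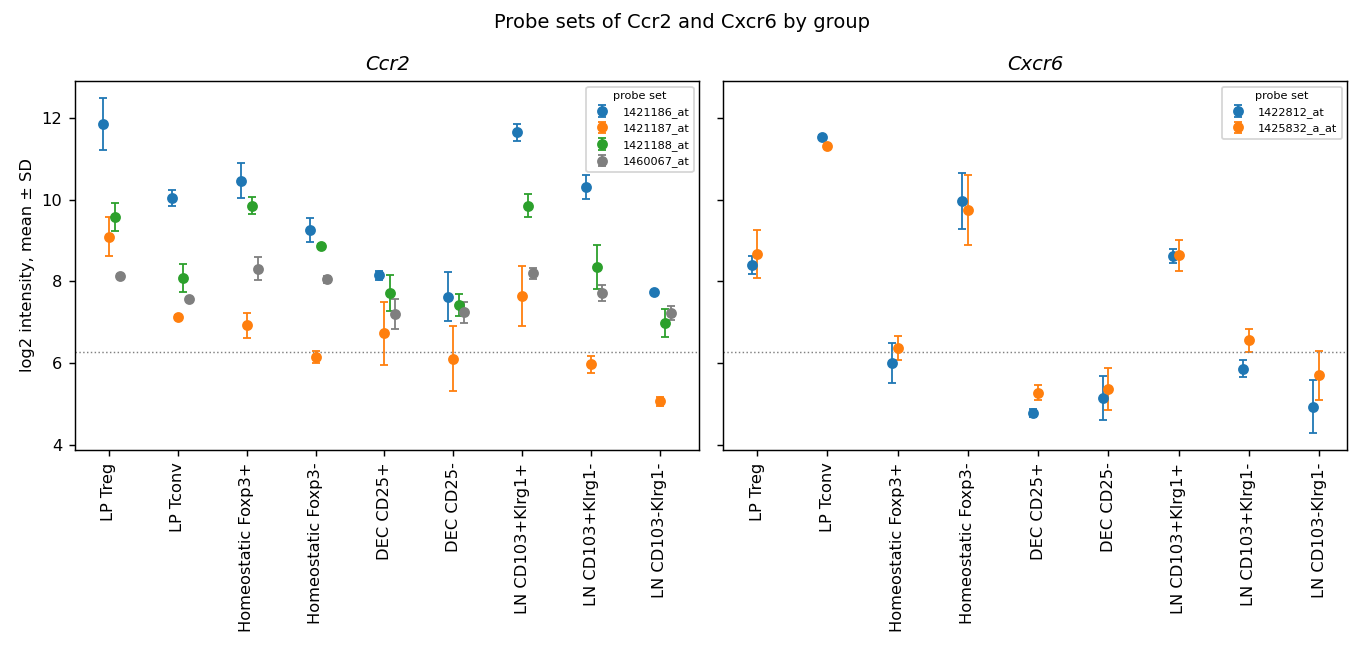
Group mean ± SD (log2 intensity, y axis) of each probe set of Ccr2 (left) and Cxcr6 (right) in the 9 groups; the dotted line is the filter at 6.27. Both Cxcr6 probe sets follow each other, while 1460067_at of Ccr2 moves least.

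Of the other chemokine receptors, 17 were listed and 10 could be tested. LP Treg cells held more of 3 of them than LP Tconv cells: Ccrl2, an atypical receptor (2.60 ± 0.607, limma adjusted p = 0.0217), Ccr8 (at least 3.66-fold, adjusted p = 0.00121) and Ccr4 (1.75 ± 0.227, adjusted p = 0.000118), both known from activated Treg cells. The median over the 10 was 0.21 there, beside -0.01 over all genes. In the homeostatic pair 1 of 10 was called: Cx3cr1, the fractalkine receptor, was lower, as Cxcr6 was, on the Foxp3+ arrays (-1.38 ± 0.194, adjusted p = 0.000484 by limma). The part of the myeloid, dendritic, CD8 T and NK markers of the homeostatic arrays in the Cx3cr1 difference was not tested. In the DEC pair 0 of 10 were called. Against CD103-Klrg1- cells, 5 of 10 rose in LP Treg, Ccr1, Ccr4, Ccr8, Ccr9 and Ccrl2, as did Ccr2, Cxcr6 and Cxcr3, and the median over the 10 was 0.70. Of all genes, 2.7% were called in the gut pair, 1.76% in the homeostatic pair and 0.495% in the DEC pair. For LP Treg against CD103-Klrg1- cells the share was 4.55%.

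Ccr9, the receptor of gut homing, averaged 13.10 in LP Treg and 12.52 in LP Tconv, and from 7.24 to 9.33 in the 7 other groups. It was 5.36 ± 0.603 higher in LP Treg than in CD103+Klrg1+ cells (limma adjusted p = 4.17e-05), from which Ccr2, Cxcr6 and Cxcr3 of LP Treg cells did not differ past the threshold. Ccr4 was also higher in LP Treg than in CD103+Klrg1+ cells (1.36 ± 0.227, adjusted p = 0.0021 by limma). Ccr10, a receptor for skin and mucosal chemokines, was lower (-1.84 ± 0.231, adjusted p = 0.000162). Among lymph node subsets Ccr10 was the 1 of 10 called between CD103+Klrg1+ and CD103+Klrg1- cells (1.57 ± 0.231, limma adjusted p = 0.00151, 0.647% of all genes called), alongside Cxcr6. Ccr7, the receptor for lymph node entry, averaged 7.56 in LP Treg, 7.31 in CD103+Klrg1+, 8.89 in CD103+Klrg1- and 9.25 in CD103-Klrg1- arrays, and none of the differences between these groups was called (limma adjusted p from 0.127 to 1.0).

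Transcripts of the ligands were mostly low in these T cells. Of 11 listed, 8 were tested, and Cxcl10 was the only one called, in 2 of the 9 comparisons (4.55% and 2.63% of all genes called). Cxcl10, a Cxcr3 ligand, averaged 10.24 in LP Treg and 6.95 in CD103-Klrg1- arrays (3.29 ± 0.714, limma adjusted p = 0.00926), and 7.29 in CD103+Klrg1- arrays (2.95, adjusted p = 0.0322). Cxcl16, which binds Cxcr6, lay between 6.76 and 7.32 in all groups, and Ccl20, which binds Ccr6, between 5.70 and 6.65. Ccl2, which binds Ccr2, stayed between 4.56 and 4.88, below the filter in all groups. Of 29 tested genes of receptor signalling, 2 were called for LP Treg over LP Tconv (2.7% of all genes called) and 0 in the 8 other comparisons. Rgs16, which shortens G protein signals, was higher (2.07 ± 0.474, limma adjusted p = 0.0192), and Pik3r5, a subunit of a PI3 kinase driven by G proteins, was lower (-1.89 ± 0.356, adjusted p = 0.00432).

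**Figure D5:**
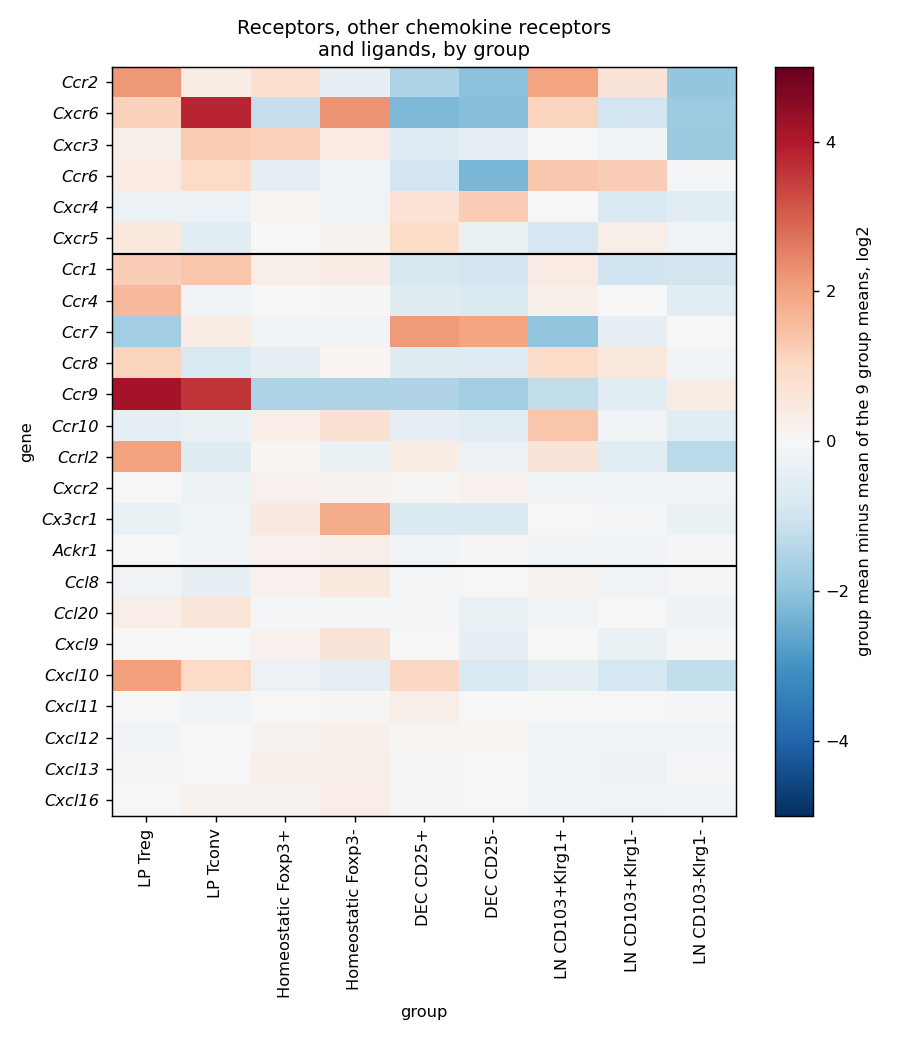
Mean log2 intensity of each group minus the mean of the 9 group means, for the 6 receptors (top block), other chemokine receptors (middle) and ligands (bottom) with a group mean above 6.27; columns are the 9 groups. Ccr9 stands out in both gut groups, Cxcr6 in LP Tconv and homeostatic Foxp3-, and Ccr2 in LP Treg and CD103+Klrg1+.

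Genes of helper T cell programmes were counted beside the receptors known as their marks. Of 10 tested Th1 genes, 5 fell in LP Treg relative to LP Tconv, where 2.7% of all genes were called, and the median was -1.67. Among them were the death ligand Fasl (-3.65 ± 0.503, limma adjusted p = 0.00023), Ifng, the cytokine of Th1 cells (-2.87 ± 0.413, adjusted p = 0.000352), and the IL-18 receptor chains Il18r1 (-2.28 ± 0.273) and Il18rap (-2.14 ± 0.299). Tbx21, the Th1 lineage factor, differed by -2.04 ± 0.573 and was not called (adjusted p = 0.0757 by limma), as Cxcr3 was not. Hopx went the other way, higher in LP Treg by 1.12 ± 0.31, and was not called either (limma adjusted p = 0.0675). In the homeostatic and DEC pairs 0 of 10 were called, where 1.76% and 0.495% of all genes were. Against CD103-Klrg1- cells, where 4.55% of all genes were called, 4 of 10 rose in LP Treg, among them Il12rb1 (2.16 ± 0.259, limma adjusted p = 5.08e-05).

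Of 8 tested Th17 genes, 3 fell in LP Treg relative to LP Tconv (2.7% of all genes called), among them Il17a (-4.25 ± 0.325, limma adjusted p = 2.47e-07), while Ccr6 was not called. In CD103+Klrg1+ relative to CD103-Klrg1- cells (2.1% of all genes called) 3 of 8 rose: Ahr, the aryl hydrocarbon receptor (2.46 ± 0.412, limma adjusted p = 0.0017), Rora (2.13 ± 0.356) and the transcription factor Maf (1.98 ± 0.402). Of 13 follicular helper genes, 4 fell in homeostatic Foxp3+ relative to Foxp3- cells (1.76% of all genes called), among them the lineage factor Bcl6 (-1.64 ± 0.307, adjusted p = 0.00574 by limma) and Tox2 (-2.52 ± 0.548, adjusted p = 0.0193). Their receptor Cxcr5 differed by -0.19 in that comparison and was not called.

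Over the 9 group means, given as a description since groups share arrays, strains and hosts, Ccr2 went most closely with Stx11 (Pearson r = 0.975), a SNARE protein of granule release, Glrx (0.97), a glutaredoxin, and Myo1c (0.956), a myosin. Cxcr6 was most like Ric1 (0.99), Tmigd1 (0.958) and Unc119b (0.952). Cxcr3 was most like Pola2 (0.9), a DNA polymerase subunit, Lgalsl (0.897) and Tbc1d31 (0.896), and Ccr6 like Thap3 (0.969), Trmt2b (0.969) and Pdpr (0.964). Cxcr4 was most like Map1lc3a (0.948), Armc5 (0.946) and Hspa2 (0.942), and Cxcr5 like Lsm11 (0.928), Prl4a1 (0.904) and Krt84 (0.871). Group means of Lsm11 ran only from 6.54 to 6.82, of Prl4a1 from 6.12 to 6.46 and of Krt84 from 6.18 to 6.69. These lie near the filter, as Cxcr5 does. All of these genes were picked for a high r over only 9 points. Among the receptors themselves r was 0.72 for Ccr2 and Ccr6, 0.65 for Cxcr3 and Cxcr6, 0.55 for Ccr2 and Cxcr6, and -0.83 for Ccr6 and Cxcr4. Ccr2 had r = 0.93 with Itgae, the CD103 gene used in the lymph node sort, 0.93 with Prdm1 and 0.8 with Klrg1. Cxcr6 had r = 0.69 with Tbx21 and -0.61 with Foxp3, and Cxcr3 had r = 0.75 with Tbx21.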

How the data were processed

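Sorted CD4+ T cells were profiled on 23 Affymetrix M430v2 arrays in 9 groups. RNA went through Trizol and 2 rounds of amplification, per the labels' protocols. The deposited values are linear intensities that the authors made with RMA in GenePattern, per the series' design text; the version is not given in the sources used here, nor over which arrays RMA was run. The number of arrays, 2 to 4 a group, limits the precision.

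Log2 was taken with no pseudocount. Of 45101 probe sets, 34945 had 1 gene symbol, 932 several and 9224 none, controls included. The probe set of highest mean stood for a gene, and 12516 of 18193 genes had a group mean above 6.27 (77.0 intensity units) and were tested. One mean per group was fitted with limma 3.58.1 in R 4.3.3 (14 residual and 3.48 prior degrees of freedom), checked on simulated data. P-values are two-sided, adjusted by Benjamini-Hochberg over all genes tested, and called under 0.05; they measure the spread between pools. Where a lower group mean was below 6.27 a fold is given as "at least". Figures were drawn with matplotlib 3.10.9 and tables made with pandas 2.3.3, under Python 3.11.15.

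Named genes were the 6 receptors, up to 4 called genes of smallest p per list and comparison, direct ligands, lineage factors, sort genes, and the 3 genes most like each receptor over 9 group means, clone names left out. The receptors, lists, tests and settings were chosen with earlier results of these data known. Residuals of same-number arrays correlated at 0.66, 0.58 and 0.49 in the homeostatic groups and 0.39, 0.51 and 0.38 in the DEC groups, so replicate numbers were read as pairs there; the labels do not say what they share. Other settings were another choice of probe sets, filters, an added 32, other normalizations, array weights, a trend, fewer arrays and the replicate block.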

Additional observations from a re-analysis of the deposited data

Results flagged for a closer look

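The Cxcr6 differences between sorted partners were set against each other between systems by limma's test of the difference itself. The difference between homeostatic Foxp3+ and Foxp3- cells minus the difference between DEC CD25+ and CD25- cells was -3.27 ± 0.513 (adjusted p = 0.00625), with all 3 homeostatic Foxp3+ arrays below all 3 Foxp3- arrays and the DEC groups overlapping. The gut difference minus the DEC difference was -2.55 ± 0.577 (adjusted p = 0.0379), with both LP Treg arrays below both LP Tconv arrays. It lost its call with array weights (limma adjusted p = 0.287), only the groups compared (0.0965), the replicate block (0.0545), the block in all systems at once (0.0738) or without DEC CD25- replicates 3 and 4 (0.0824). The DEC groups were sorted by CD25, held Foxp3 on both sides and lay below the filter at 6.27 for Cxcr6 on all 7 arrays, so a lower value in DEC CD25+ would not show, and the contrasts set a measured change against a probe set near background. In the single group of 4 arrays, DEC CD25-, 0 of the 10 receptor probe sets had a highest or lowest array that stood apart by Dixon's ratio (critical value 0.829).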

How the results depend on the processing

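Cxcr6 in homeostatic cells was called under all 14 other settings and without any 1 of the arrays (-3.78 to -2.92), and in LP Treg against LP Tconv under 12 of 13 (adjusted p = 0.124 with only the groups compared). The number of receptors called changed as follows, and the cause was not tested. LP Treg against LP Tconv had 2 called, but 1 by the weakest probe set of each gene or with array weights and 0 with only the groups compared. The homeostatic pair had 1, but 2 with the mean of probe sets, log2(value + 32), quantile or cyclic loess normalization, only the groups compared, the replicate block in all systems at once, or without DEC CD25- replicates 3 and 4, and 3 with array weights. The DEC pair had 0, but 1 with the replicate block in all systems at once. CD103+Klrg1- against CD103-Klrg1- had 1, but 0 by the weakest probe set and 2 with cyclic loess or array weights. CD103+Klrg1+ against CD103+Klrg1- had 1, but 2 with the mean of probe sets, array weights or without DEC CD25- replicates 3 and 4, and 0 by the weakest probe set, with no filter, without the LP arrays or with the replicate block (Cxcr6 adjusted p = 0.0629). CD103+Klrg1+ against CD103-Klrg1- had 3, but 4, with Ccr6, with array weights, only the groups compared or the replicate block in all systems at once. LP Treg had 2 against CD103+Klrg1- but 1 by the weakest probe set and 3, with Ccr6 lower (adjusted p = 0.0477), with only the groups compared, and 0 against CD103+Klrg1+ but 1 with only the groups compared. The gut minus DEC contrast had 1, but 0 with array weights, only the groups compared or the replicate block. A count of 1 did not always mean the same gene: for gut minus DEC it was Ccr6 with the block in all systems at once (-1.72, adjusted p = 0.021) and Ccr2 without DEC CD25- replicates 3 and 4 (1.81, adjusted p = 0.0302), and for CD103+Klrg1+ against CD103+Klrg1- it was Ccr2 with the block in all systems at once (1.35, adjusted p = 0.0421). The block in all systems at once and the crossed numbers below were chosen after seeing the data.

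Leaving out 1 array gave 1 to 2 receptors called for LP Treg against LP Tconv, 1 in the homeostatic pair, 0 to 1 in the DEC pair, 0 to 1 for CD103+Klrg1- against CD103-Klrg1-, 0 for CD103+Klrg1+ against CD103+Klrg1-, 2 to 3 for CD103+Klrg1+ and for LP Treg against CD103-Klrg1-, 0 to 2 for LP Treg against CD103+Klrg1-, 0 for LP Treg against CD103+Klrg1+, and 0 to 1, 1 and 0 for the contrasts gut minus DEC, homeostatic minus DEC and gut minus homeostatic.

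Signs turned only for differences that were not called. Ccr2 in the DEC pair was -0.04 by its weakest probe set and -0.00 without DEC CD25- replicates 3 and 4. For LP Treg against CD103+Klrg1+, Ccr2 was -0.07 by its weakest probe set, and Cxcr6 was -0.10 with the mean of probe sets and -0.02 after cyclic loess. Without 1 array the range crossed 0 for Ccr2 (-0.25 to 0.66) and Cxcr6 (-0.39 to 0.44) in LP Treg against CD103+Klrg1+, Ccr6 (-0.61 to 0.17), Cxcr4 (-0.22 to 0.83) and Cxcr5 (-0.52 to 0.14) in the homeostatic pair, Cxcr3 (-0.32 to 0.03) and Cxcr6 (-0.35 to 0.03) in the DEC pair, Cxcr4 in LP Treg against LP Tconv (-1.14 to 1.10), CD103+Klrg1- against CD103-Klrg1- (-0.88 to 0.45), LP Treg against CD103+Klrg1- (-0.20 to 1.13) and LP Treg against CD103-Klrg1- (-0.25 to 0.75), Cxcr3 in CD103+Klrg1+ against CD103+Klrg1- (-0.02 to 0.34), Cxcr5 in LP Treg against CD103+Klrg1- (-0.14 to 0.61) and Ccr6 in gut minus homeostatic (-0.78 to 0.00).

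Counts over all genes moved too: 17 to 615 around 338 for LP Treg against LP Tconv, 204 to 1236 around 220 in the homeostatic pair, 5 to 193 around 62 in the DEC pair (110 with the replicate block), 11 to 99 around 12, 61 to 264 around 81 and 237 to 599 around 263 for CD103+Klrg1- against CD103-Klrg1-, CD103+Klrg1+ against CD103+Klrg1- and CD103+Klrg1+ against CD103-Klrg1-, 529 to 1494 around 570, 279 to 1347 around 329 and 244 to 648 around 257 for LP Treg against CD103-Klrg1-, CD103+Klrg1- and CD103+Klrg1+, and 92 to 217 around 97, 25 to 245 around 126 and 28 to 292 around 42 for gut minus homeostatic, gut minus DEC and homeostatic minus DEC. Of the receptor calls, the replicate block within each pair changed 2, Cxcr6 in CD103+Klrg1+ against CD103+Klrg1- and Cxcr6 in the gut minus DEC contrast (-2.31, adjusted p = 0.0545), and no other. With 2 numbers a group, same-number residuals correlated at 0.39, 0.37 and 0.72 among the lymph node subsets and -0.07 in the gut pair. They correlated at -0.19 for LP Treg and CD103+Klrg1-, and with the numbers crossed there 2 receptors and 298 genes were called. Values near 6.27 lie close to background, which limits Cxcr5 and the low Cxcr6 groups.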

Other observations

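The promoter windows differed in base composition. The Cxcr4 window held 20 CpG and 59.3% G and C, against a median of 52.7% over all promoters, and 3 matches to CCGCCC, the Sp and Klf motif found in 35.7% of promoters. The Ccr2 window held 1 CpG and 38.0% G and C, and the Cxcr6 window 3 CpG and 44.3%. The Cxcr3 window held 4 CpG and 49.3% G and C, and the 2 Ccr6 windows 2 and 10 CpG and 42.3% and 47.7%. The median over all promoters was 7.0 CpG. Of these 5 receptors Cxcr4 had the narrowest range of group means (2.02) and Cxcr6 the widest (6.04). With 5 genes this is a description only.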
